A study of Mus musculus with 12 samples.

Results

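Glucose use and the response to low oxygen were described through 10 genes of the sciatic dorsal root ganglia (DRG), taken by name out of 44345 gene names in the read count table. They were Hif1a, Vegfa, Slc2a1, Hk1, Hk2, Pfkp, Pgk1, Pkm, Ldha and Ldhb, and all 10 passed the filter on low counts. The question was how their RNA levels stood after axotomy, after enriched housing, and after both.

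Glycolysis splits glucose into pyruvate in the cytosol, and lactate dehydrogenase turns pyruvate into lactate where oxygen is short or glycolysis runs fast. HIF1A is the oxygen-labile subunit of the hypoxia-inducible factor: in well-oxygenated cells its protein is hydroxylated and degraded, so its activity is set largely on the protein and not on the RNA. Stabilised HIF1A pairs with ARNT, binds short ACGTG or GCGTG cores in DNA, and drives genes of glucose uptake, glycolysis, lactate production and vessel growth. In peripheral nerve and ganglia, neurons are known as heavy consumers of glucose, and glia as suppliers of lactate to axons.

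The C57BL/6 mice were 5 to 8 weeks old and spent 10 days in standard housing (SH) or environmental enrichment (EE), which meant larger and fuller cages with a running wheel. They then had a sham operation that exposed the sciatic nerve, or a sciatic nerve axotomy (SNA) that cut it through. The L4-L6 DRG of both sides were taken 24 h later from 2 mice per sample. There were 4 groups of 3 samples, and thus of 6 mice: sham and SNA after standard housing (SH Sham and SH SNA), and the same after enrichment (EE Sham and EE + SNA). SH Sham is the control of both housing and surgery, and EE Sham is the control of surgery within EE. The study takes EE Sham from an earlier data set and the labels give no sequencing batch, so EE Sham and a separate preparation cannot be told apart. P-values measure the spread between pooled samples.

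Each library held 11343579 to 22871460 reads on genes. All 12 markers of sensory neurons were measured, and their summed level was 8996 to 10570 read counts scaled to library size (CPM) over the 12 samples. The injury response genes (Atf3, Sprr1a, Gap43, Sox11, Jun and Gal) all rose after SNA (6 of 6) in either housing, and their sum was 493.6 to 550 CPM in SH Sham, 1102 to 1186 in SH SNA and 995.7 to 1115 in EE + SNA. A pair of libraries stood apart in marker genes of muscle and of neutrophils. The sum of 8 skeletal muscle genes was 959.3 CPM in SH SNA sample 2 and 5.05 to 165.8 CPM in the other 11 samples. The sum of 7 neutrophil genes was 718.3 CPM in EE + SNA sample 3 and 68.6 to 306.1 CPM in the others. In bulk ganglia, fewer cells of a type and less RNA per cell cannot be told apart.

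The promoters of the 10 genes are shown for the ACGTG and GCGTG cores. The genes were taken by name for glucose use and low oxygen, processes that HIF drives. Such cores are thus not independent of the choice of genes. RefSeq (GRCm38.p6) gave 14 windows of 250 bases before a transcription start for these genes. Of these, 11 held ACGTG or GCGTG on either strand, and each of the 10 genes had at least 1 such window. Among 32851 windows of all genes, 16.6% held ACGTG, 28.2% held GCGTG and 38.6% held either. These shares are per window, some of the 10 genes have more than 1 window, and no share per gene was computed. The palindrome CACGTG, an E-box read by other factors too, contains ACGTG on both strands and was present in 6.02% of all windows. The windows of Slc2a1 and Hk2, which rose after EE + SNA, of Ldha, which holds the most matches, and the upstream window of Vegfa, which holds none, are given 5′ to 3′ with every match in capitals.
Slc2a1 (chr4:119108495-119108744, plus strand): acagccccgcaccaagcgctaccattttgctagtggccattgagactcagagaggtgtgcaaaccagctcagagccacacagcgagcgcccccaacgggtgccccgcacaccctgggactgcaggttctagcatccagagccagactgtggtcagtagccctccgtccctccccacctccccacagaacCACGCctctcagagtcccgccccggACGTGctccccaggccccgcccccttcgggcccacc
Hk2 (chr6:82774455-82774704, minus strand): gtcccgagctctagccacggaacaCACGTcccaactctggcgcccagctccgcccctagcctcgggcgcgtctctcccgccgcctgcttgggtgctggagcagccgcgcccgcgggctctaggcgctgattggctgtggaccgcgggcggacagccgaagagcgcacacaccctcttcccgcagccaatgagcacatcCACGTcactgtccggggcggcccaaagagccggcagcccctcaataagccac
Ldha (chr7:46845554-46845803, plus strand): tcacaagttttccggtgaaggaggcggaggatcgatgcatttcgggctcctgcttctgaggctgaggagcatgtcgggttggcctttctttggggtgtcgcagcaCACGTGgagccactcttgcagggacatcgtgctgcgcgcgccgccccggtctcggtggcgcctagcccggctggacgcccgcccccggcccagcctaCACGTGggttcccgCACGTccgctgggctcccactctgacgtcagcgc
Vegfa (chr17:46032378-46032627, minus strand): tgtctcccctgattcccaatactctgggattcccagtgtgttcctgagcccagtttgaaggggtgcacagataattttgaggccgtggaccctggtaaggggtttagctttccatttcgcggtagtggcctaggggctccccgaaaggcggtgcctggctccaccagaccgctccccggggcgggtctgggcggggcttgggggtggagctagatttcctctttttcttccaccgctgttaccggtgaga

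In Slc2a1 a reversed GCGTG and an ACGTG began 61 and 36 bases before the start. In Hk2 a pair of reversed ACGTG stood 226 and 52 bases before it. In Ldha, 2 E-boxes and a reversed ACGTG gave 5 matches, all within the last 145 bases. The downstream window of Vegfa held 1 ACGTG and 1 GCGTG. The matches describe the letters of these windows and not the binding of a factor, which was not measured here. The sequences were printed for orientation, and no test of motifs against expression was made.

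The levels of the 10 genes, compared per gene length as FPKM, ranged from one of the highest in the ganglia to near the floor. Pkm, whose pyruvate kinase makes pyruvate and ATP in the last glycolytic step, had 452 to 545.3 FPKM over the 12 samples, more than 99.63% of the tested genes. Pgk1, the phosphoglycerate kinase of the first ATP-yielding step, had 168.5 to 199.5 FPKM and Ldhb had 167 to 207, so that these neighbours overlapped. Ldha followed with 126.6 to 157.1 FPKM, below both in every sample. By reads, Ldha (379.1 to 467.2 CPM) overlapped Pgk1 (389.2 to 456.1) and lay above Ldhb (268.9 to 331). Pfkp (36.64 to 41.31 FPKM), Hk1 (30.48 to 37.2) and Slc2a1 (20.91 to 43.79) formed a middle band with overlapping ranges. This order of genes depends on the gene lengths used. The exons of all annotated transcripts together cover 13401 bases in Pfkp, 8532 in Hk1, 3310 in Ldha, 2244 in Pgk1 and 1570 in Ldhb. Hif1a had 18.31 to 23.38 FPKM, and Vegfa had 7.84 to 11.17. Hk2 was the lowest, with 0.499 to 1.19 FPKM, and only 13.83% of the tested genes had a lower mean.

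**Figure D1:**
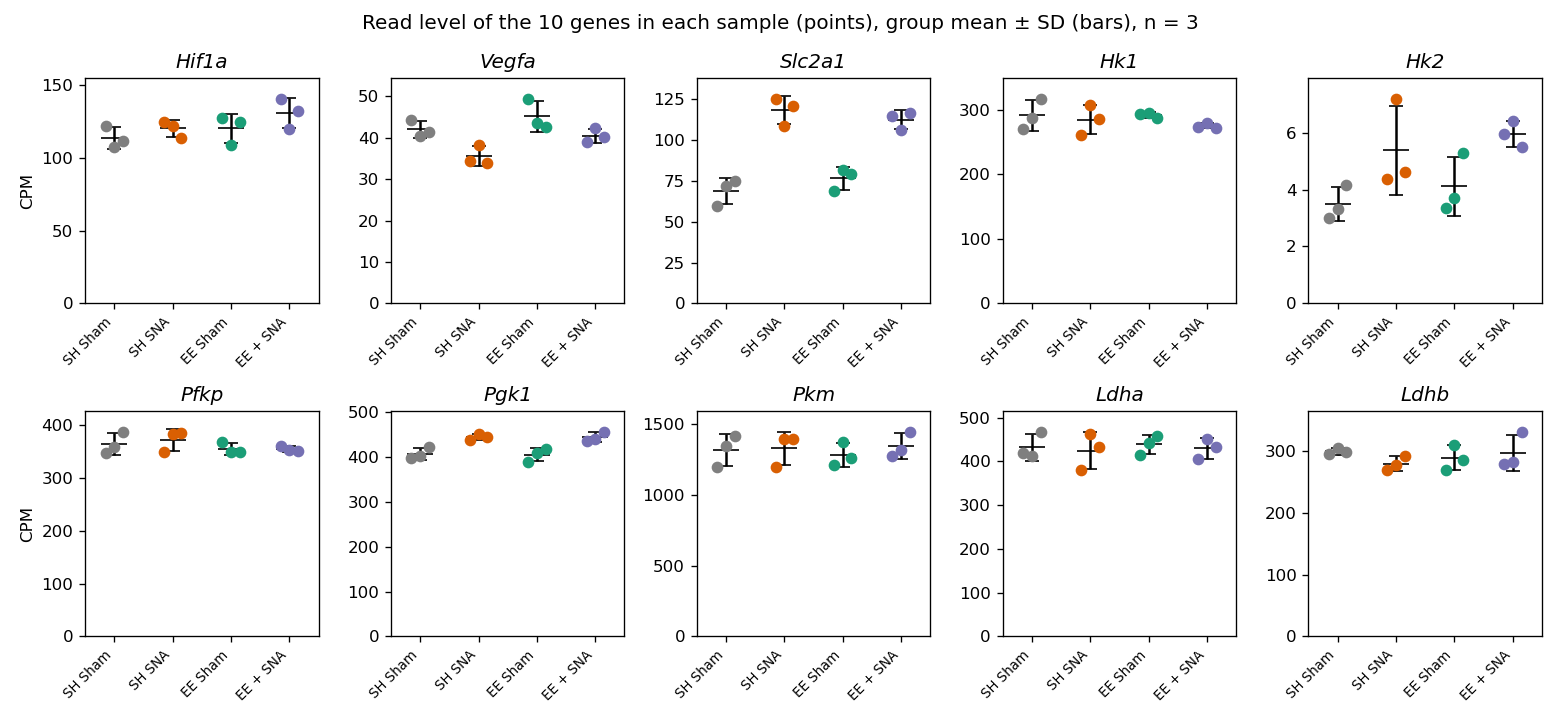
TMM-scaled read level (CPM, linear axes from 0) of each of the 10 genes in the 12 samples. Points are samples, and the bars give the group mean and SD (n = 3). The SNA samples of Slc2a1 lie between 106 and 125.4 CPM and all sham samples between 59.95 and 81.74.

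After SNA in SH, the glucose transporter Slc2a1 rose 1.72-fold and the other 9 genes did not pass the adjusted threshold. With edgeR's quasi-likelihood test on the counts, 4 of the 10 genes passed an unadjusted P of 0.05 in SH SNA against SH Sham, 3 higher (Slc2a1, Hk2, Pgk1) and 1 lower (Vegfa). Of the 16238 genes tested, 25.2% did so. After Benjamini-Hochberg adjustment 1 of the 10 remained, Slc2a1, against 11.2% of all genes. In 5 of the 10 the 3 SH SNA samples lay wholly above or below the 3 SH Sham samples, against 29.4% of all genes. The median log2 fold change of the 10 was 0.022, and that of all tested genes 0.0047.

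After EE + SNA, Slc2a1 rose 1.63-fold and Hk2 rose 1.72-fold against SH Sham. In this comparison 4 of the 10 genes, all higher, passed the unadjusted threshold (Slc2a1, Hk2, Hif1a, Pgk1), against 27.2% of all genes, and 2 passed the adjusted one, against 12.5%. The unadjusted count was 3, without Pgk1, with the likelihood ratio test, with scaling by library size, without a filter, with 10 counts required in every sample and with limma at either pseudocount. Groups did not overlap for 3 of the 10, all higher in EE + SNA, and for 31.8% of all genes. With 10 genes, these counts are close to those of the whole table, so they say nothing particular about this set. The comparisons share their SH Sham samples.

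**Figure D2:**
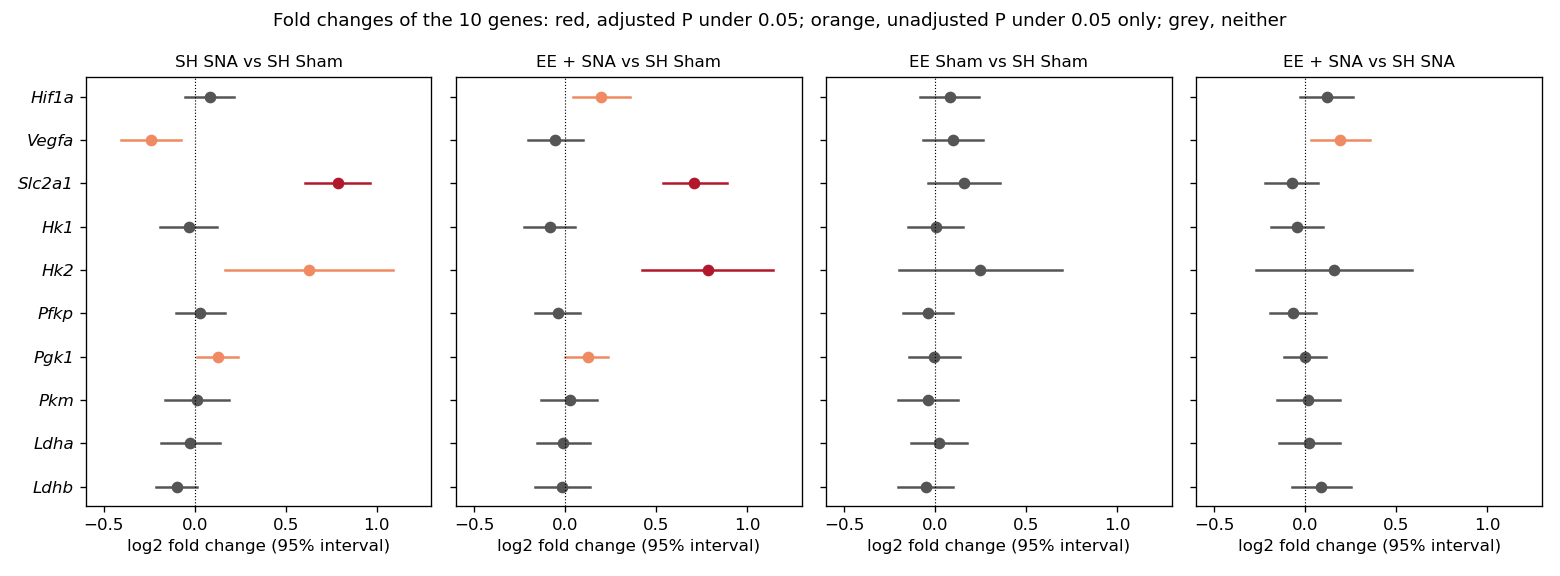
Log2 fold change of the 10 genes with its 95% interval in 4 comparisons. Points are estimates, red marks an adjusted P under 0.05, orange an unadjusted P under 0.05 only, and grey neither. Slc2a1 stands at 0.79 and 0.71 in the panels that set SNA against SH Sham, and the intervals of Hk1, Pfkp, Pkm, Ldha and Ldhb include 0 in every panel.

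Hif1a, the regulator, passed the adjusted threshold in none of the comparisons. Its level was 121.8, 107.3 and 111.9 CPM in SH Sham and 125, 122.1 and 114 CPM in SH SNA. It was 127.5, 109.1 and 124.5 CPM in EE Sham, and 140.6, 120.1 and 132 CPM in EE + SNA. The groups overlapped in every comparison, although the 2 highest samples were of EE + SNA. EE + SNA against SH Sham gave 1.15-fold (95% interval 1.03 to 1.28, log2 0.20 ± 0.074 SE, adjusted P = 0.1). SH SNA against SH Sham gave 1.06-fold (0.965 to 1.16, adjusted P = 0.445). Without EE + SNA sample 2 the adjusted P was 0.0409. The exons of Hif1a share 330 bases with Gm15283 on the other strand and 148 with Gm49321 on its own, and a strand setting of the counting is not given in the sources used here.

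Vegfa, the secreted growth factor for blood vessels and a classical HIF target (chr17:46016993-46032369, minus strand, GRCm38), was lowest in SH SNA. SH Sham had 44.3, 40.4 and 41.4 CPM and SH SNA had 34.4, 38.3 and 33.8 CPM. EE Sham had 49.4, 43.6 and 42.5 CPM, and EE + SNA had 38.9, 42.3 and 40.1 CPM. The SH SNA samples lay below all 9 others, and those of EE + SNA overlapped SH Sham. SH SNA against SH Sham gave 0.845-fold (95% interval 0.754 to 0.947), past the unadjusted threshold but not the adjusted one (adjusted P = 0.0602). The adjusted P was below 0.05 under 4 other settings, with values of 0.0308 to 0.0474, among them the fit without SH SNA sample 2. EE + SNA against SH Sham gave 0.963-fold (0.87 to 1.07, adjusted P = 0.66).

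Slc2a1 encodes GLUT1, the transporter of basal glucose uptake found in vessel walls, glia and many other cells (chr4:119108711-119137983, plus strand, GRCm38; 105 exon bases are shared with Gm12868 on the other strand). Its level was 59.95, 71.81 and 74.88 CPM in SH Sham and 125.4, 109 and 120.8 CPM in SH SNA. It was 68.85, 81.74 and 79.61 CPM in EE Sham and 115.1, 106 and 116.8 CPM in EE + SNA. Every sample with SNA lay above every sham sample, in both housings. The rise was 1.72-fold in SH SNA against SH Sham (95% interval 1.52 to 1.95, log2 0.79 ± 0.082 SE, adjusted P = 7.86e-05). It was 1.63-fold in EE + SNA against SH Sham (1.45 to 1.85, log2 0.71 ± 0.081 SE, adjusted P = 0.000179) and 1.46-fold against EE Sham (1.29 to 1.65, adjusted P = 0.00268). By P-value Slc2a1 ranked 110, 101 and 130 among all genes in these comparisons. The rise was as large without the library rich in muscle RNA (log2 0.84) and, in EE + SNA against SH Sham, 0.68 without the library rich in neutrophil RNA.

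Markers of cell types other than neurons moved to different extents with SNA. Their counts stand beside the share of all tested genes that passed the adjusted threshold. That share was 11.2% in SH SNA and 12.5% in EE + SNA against SH Sham, and it also applies to the marker counts below. The sum of the 8 endothelial markers was 145.5 to 176 CPM in SH Sham, 166.4 to 186.4 in SH SNA, 127.1 to 166 in EE Sham and 181.2 to 200.7 in EE + SNA, and 1 and 2 of the 8 rose after adjustment in SH SNA and EE + SNA against SH Sham. The sum of the 3 red blood cell markers was 113.9 to 184.3 CPM in SH Sham, 189.8 to 515.7 in SH SNA, 110.8 to 307.1 in EE Sham and 175.1 to 595.2 in EE + SNA, and 2 and 3 of the 3 rose. Of the 6 Schwann cell markers, 0 rose in SH SNA (4 at an unadjusted P under 0.05) and 3 rose in EE + SNA, with sums of 7344 to 8910 CPM in SH Sham, 7838 to 11410 in SH SNA and 9463 to 12280 in EE + SNA. Of the 6 satellite glia markers 2 and 1 rose, with sums of 2381 to 2551, 2385 to 2729 and 2360 to 2538 CPM in the same order. Of the 12 sensory neuron markers 4 fell in either comparison. The part of these shifts in the level of Slc2a1 was not tested.

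The hexokinases phosphorylate glucose on entry. Hk1, the form of brain and nerve, was at 269.6, 287.4 and 316.6 CPM in SH Sham, 261 to 307 in SH SNA, 286.9 to 295.1 in EE Sham and 272.2 to 279.4 in EE + SNA. No comparison of Hk1 passed the unadjusted threshold, and its fold change was 0.979 (95% interval 0.877 to 1.09) in SH SNA and 0.944 (0.856 to 1.04) in EE + SNA against SH Sham. Hk2, the inducible form typical of muscle and of cells with strong glycolysis, was rare, with 37 to 147 reads per library (chr6:82725025-82774454, minus strand, GRCm38).

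Hk2 had 2.99, 3.3 and 4.15 CPM in SH Sham and 4.36, 7.18 and 4.62 CPM in SH SNA. It had 3.34, 3.72 and 5.28 CPM in EE Sham and 5.96, 6.4 and 5.48 CPM in EE + SNA. All SNA samples lay above all SH Sham samples, and the EE + SNA samples lay above the EE Sham samples. EE + SNA against SH Sham gave 1.72-fold (95% interval 1.34 to 2.21, log2 0.78 ± 0.17 SE, adjusted P = 0.0099), and without SH Sham sample 1 the adjusted P was 0.0514. The muscle sums were 5.05, 13 and 134 CPM in SH Sham and 115.2, 105.7 and 164.7 in EE + SNA, with overlap. In EE Sham they were 10.9, 165.8 and 61.1 CPM. Within SH Sham and within SH SNA the samples stood in the same order by Hk2 as by muscle sum. Within EE Sham the orders differed, and within EE + SNA the order was reversed. Without SH Sham sample 3, the one with 134 CPM, the log2 difference was 0.92 (adjusted P = 0.011). That fit keeps the SH Sham samples with 5.05 and 13 CPM, so the groups remain unequal in muscle RNA. The part of muscle RNA in Hk2 was not tested. SH SNA against SH Sham gave 1.55-fold (1.12 to 2.13, adjusted P = 0.0808). The highest sample of SH SNA was sample 2, the library with 959.3 CPM of muscle genes, and without it the log2 difference went from 0.63 to 0.37 (adjusted P = 0.299). EE + SNA against EE Sham gave 1.44-fold (1.09 to 1.92, adjusted P = 0.135).

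The ratio of Hk2 to Hk1, taken on FPKM within each sample, was −5.98, −5.93 and −5.74 in log2 in SH Sham and −5.39, −4.90 and −5.43 in SH SNA. It was −5.94, −5.80 and −5.25 in EE Sham and −5.00, −4.93 and −5.12 in EE + SNA. Thus Hk1 stayed far above Hk2 in every sample, and the ratio was higher in all SNA samples than in all SH Sham samples. The difference from SH Sham was 0.64 in log2 for SH SNA and 0.86 for EE + SNA, and that of EE + SNA from EE Sham was 0.64. The two-sided exact permutation P was 0.1 for each of the 3, the smallest that 3 against 3 allow, and 0.333 when adjusted over the 10 ratio comparisons made. EE Sham differed from SH Sham by 0.22 (exact permutation P = 0.6).

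**Figure D3:**
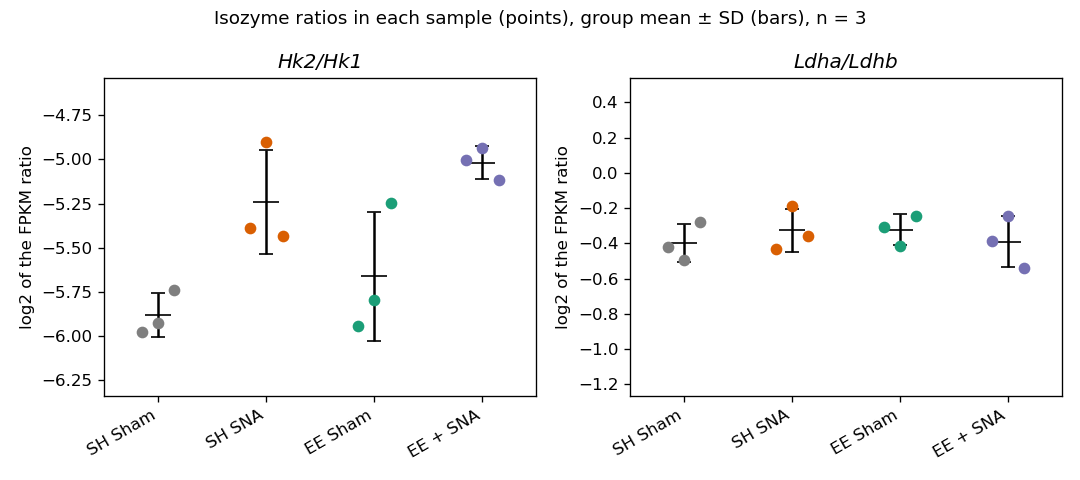
Log2 ratio of Hk2 to Hk1 (left) and of Ldha to Ldhb (right), both from FPKM, in each of the 12 samples. Points are samples, bars give group mean and SD (n = 3), and both axes span the same range in log2. The group means of Hk2/Hk1 run from −5.88 in SH Sham to −5.02 in EE + SNA, and those of Ldha/Ldhb from −0.40 to −0.32.

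Pfkp, the platelet-type phosphofructokinase that commits sugar to glycolysis, had overlapping ranges in the 4 groups. It had 348.1 to 387.2 CPM in SH Sham, 348.7 to 384.6 in SH SNA, 348.2 to 368 in EE Sham and 350.6 to 360.9 in EE + SNA. The fold change was 1.02 (95% interval 0.932 to 1.12) in SH SNA and 0.973 (0.891 to 1.06) in EE + SNA against SH Sham. Pfkp shares 748 exon bases with Pitrm1 on the other strand.

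Pgk1 was slightly higher with SNA in all samples. It had 396.8, 402.1 and 421.7 CPM in SH Sham and 436.8, 452 and 444.6 CPM in SH SNA. It had 389.2, 408.1 and 418.6 CPM in EE Sham and 435.3, 440.1 and 456.1 CPM in EE + SNA. None of the 6 SNA samples overlapped any sham sample. SH SNA against SH Sham gave 1.09-fold (95% interval 1.01 to 1.18, adjusted P = 0.143), EE + SNA against SH Sham gave 1.09-fold (adjusted P = 0.17), and EE + SNA against EE Sham gave 1.09-fold (adjusted P = 0.275).

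Pkm, with the most reads of the 10, had 1195 to 1414 CPM in SH Sham, 1194 to 1396 in SH SNA, 1210 to 1374 in EE Sham and 1271 to 1444 in EE + SNA. Its fold change was 1.01 (95% interval 0.894 to 1.14) in SH SNA and 1.02 (0.914 to 1.13) in EE + SNA against SH Sham. The table counts reads per gene, so the splice forms of Pkm, which make enzymes of different activity, were not separated. Pkm shares 767 exon bases with Gm49759 on the same strand.

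The lactate dehydrogenase subunits close the pathway. Ldha favours the step from pyruvate to lactate and is a HIF target, and Ldhb favours the way back. Ldha had 411.6 to 467.2 CPM in SH Sham, 379.1 to 461.4 in SH SNA, 414.4 to 458.8 in EE Sham and 404.6 to 451.7 in EE + SNA. Its fold change was 0.984 (95% interval 0.878 to 1.1) in SH SNA and 0.994 (0.9 to 1.1) in EE + SNA against SH Sham. Ldhb had 294.4, 305.3 and 298.9 CPM in SH Sham and 268.9, 277.3 and 292.6 CPM in SH SNA. The SH SNA samples of Ldhb lay below all SH Sham samples, but the difference of 0.935-fold (0.862 to 1.01) missed the unadjusted threshold (adjusted P = 0.29). EE + SNA gave 0.99-fold (0.892 to 1.1) against SH Sham.

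The log2 ratio of Ldha to Ldhb in FPKM had a mean of −0.40 ± 0.11 in SH Sham, −0.33 ± 0.12 in SH SNA, −0.32 ± 0.087 in EE Sham and −0.39 ± 0.15 in EE + SNA (SD, n = 3). Differences between groups were 0.0086 to 0.076 in size, smaller than the spread between samples, and the exact permutation P was 0.4 to 1. Ldhb was above Ldha per length in all 12 samples. By reads the order was the other way, with 379.1 to 467.2 CPM for Ldha and 268.9 to 331 for Ldhb. Which subunit is higher thus depends on the gene length used. The exons of all annotated transcripts together cover 3310 bases in Ldha and 1570 in Ldhb. Pgk1, Pkm, Ldha and Ldhb have processed pseudogene copies in the mouse genome, and 8.49% to 9.28% of the reads in HTSeq's totals were left out as not uniquely aligned, so the absolute levels of these genes may be low.

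After EE alone, none of the 10 genes passed a threshold in the main fit, which pairs no samples. In EE Sham against SH Sham, 0 of 10 passed the unadjusted threshold with edgeR, against 2.97% of all genes, and 0 passed the adjusted one, against 0.00616%. DESeq2 and limma also gave 0 at the unadjusted threshold. No gene of the 10 had groups without overlap, against 7.61% of all genes. The largest differences were 1.19-fold for Hk2 (95% interval 0.87 to 1.62) and 1.12-fold for Slc2a1 (0.972 to 1.28, adjusted P = 1). No source describes a pairing of these groups by replicate number. With that number as a block in edgeR, Slc2a1 passed the unadjusted threshold (adjusted P = 0.865), which made the unadjusted count 1.

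EE before SNA was compared with SNA alone. In EE + SNA against SH SNA, 1 of 10 genes passed the unadjusted threshold, against 4.1% of all genes, and 0 passed the adjusted one with edgeR or DESeq2, against 0% with edgeR. That gene was Vegfa, at 1.14-fold (95% interval 1.02 to 1.28, adjusted P = 0.989), and DESeq2 gave 0 genes at the unadjusted threshold. Vegfa was also the 1 gene of the 10 whose groups did not overlap, against 10.4% of all genes. Slc2a1 gave 0.95-fold (0.858 to 1.05) and Hk2 1.11-fold (0.827 to 1.5), so that for Hk2 a difference of up to 1.5-fold lies within the interval. Without SH SNA sample 2, the library rich in muscle RNA, the log2 difference of Hk2 went from 0.15 to 0.41, past the unadjusted threshold (adjusted P = 0.999).

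Surgery within EE was tested against EE Sham. In EE + SNA against EE Sham, 2 of 10 genes passed the unadjusted threshold (Slc2a1 and Hk2, both higher), against 20.6% of all genes, and 1 passed the adjusted one (Slc2a1), against 4.83%. Groups did not overlap for 5 of the 10, against 25.8% of all genes. Slc2a1, Hk2 and Pgk1 were higher, and Vegfa (0.895-fold, adjusted P = 0.263) and Hk1 (0.938-fold, adjusted P = 0.404) were lower in EE + SNA.

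Whether the response to SNA differed between housings was tested by the interaction on all 12 samples. None of the 10 genes passed the unadjusted or the adjusted threshold with edgeR, DESeq2 or limma, against 2.61% and 0% of all genes with edgeR. The nearest was Slc2a1, whose rise was smaller in EE by 0.23 on the log2 scale (adjusted P = 1), with a ratio of the 2 fold changes of 0.851 (95% interval 0.711 to 1.02). For Hk2 this ratio was 0.939 (0.606 to 1.45), and for the other 8 genes it lay between 0.964 and 1.1.

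Other genes of the same pathways were read from 5 lists. Of all tested genes, 11.2% passed the adjusted threshold in SH SNA and 12.5% in EE + SNA against SH Sham. These shares apply to the counts of each list, and the lists are short, so the counts are a description only. Among other glycolytic enzymes, 14 of 15 passed the filter, and 2 rose in SH SNA and 1 in EE + SNA against SH Sham. The median log2 fold change of the list was 0.028 and 0.037, beside 0.0047 for all genes in both. Pfkfb4 and Pfkfb3 make the sugar bisphosphate that activates phosphofructokinase. Pfkfb4 had 27.5 to 30.6 CPM in SH Sham, 46.2 to 49 in SH SNA, 29.6 to 34.5 in EE Sham and 41.4 to 46.9 in EE + SNA, and its log2 fold change against SH Sham was 0.72 and 0.62 (adjusted P = 6.49e-05 and 0.000235). Pfkfb3 rose by 0.23 in SH SNA (adjusted P = 0.0226) and gave 0.13 in EE + SNA (adjusted P = 0.202). The call in SH SNA was lost with limma (adjusted P = 0.0699 and 0.0689) and in 5 of 6 fits that leave out a sample. The interaction of housing and surgery passed the unadjusted threshold for Pfkfb3 and Pfkfb4, and its adjusted P was 1 for both. No enzyme of the main chain in this list, from Gpi1 to Eno2, passed the adjusted threshold.

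Of 15 genes of glucose, lactate and pyruvate transport and pyruvate entry, all tested, 3 rose in SH SNA and 5 in EE + SNA against SH Sham. The shares of all genes were 11.2% and 12.5%, and none of the list fell after adjustment. The medians were 0.031 and 0.054. Slc2a3, the neuronal glucose transporter GLUT3, had 112.5 to 121.8 CPM in SH Sham, 133.6 to 141.5 in SH SNA and 135.7 to 147.4 in EE + SNA (log2 0.24 and 0.27, adjusted P = 0.0128 and 0.0127). Slc16a1, the lactate transporter MCT1, had 63.5 to 75.6 CPM in SH Sham, 83.8 to 89.1 in SH SNA and 82.6 to 90.1 in EE + SNA (log2 0.33 and 0.30, adjusted P = 0.0076 and 0.0188). For both genes the SNA samples lay above all SH Sham samples.

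Pdk4, the kinase that inhibits pyruvate dehydrogenase and so keeps pyruvate from becoming acetyl-CoA, had 14.6 to 21.9 CPM in SH Sham, 29.3 to 33.5 in SH SNA, 14.8 to 29.9 in EE Sham and 23.9 to 36.7 in EE + SNA (log2 0.74 and 0.70, adjusted P = 0.00346 and 0.0168). The call in EE + SNA was lost with DESeq2 (adjusted P = 0.0579) and with limma at either pseudocount (0.0612 and 0.0594). Pdk4 is also abundant in muscle, and its log2 fold change in SH SNA was 0.70 without the library rich in muscle RNA. Slc2a4, the insulin-regulated transporter GLUT4 of muscle and fat, had 0.587, 1.15 and 1.6 CPM in SH Sham, 1.3, 4.99 and 1.19 in SH SNA and 3.29, 2.83 and 2.66 in EE + SNA. It rose in EE + SNA (log2 1.40, adjusted P = 0.0104, and 0.0502 in the joint fit of 12 samples), and in SH SNA its log2 fold change went from 1.16 to 0.19 without that library. The muscle sums were 5.05 to 134 CPM in SH Sham and 105.7 to 164.7 in EE + SNA, 0 of the 8 muscle genes passed the adjusted threshold in either comparison (6 and 4 were higher at an unadjusted P under 0.05 by edgeR), and their part in Slc2a4 was not tested. Mpc1, a subunit of the mitochondrial pyruvate carrier, rose in EE + SNA by 0.23 (adjusted P = 0.0444), a call lost with scaling by library size (0.0546), with limma (0.0631 and 0.063) and in 5 of 6 fits that leave out a sample. It shares 480 exon bases with 4930506C21Rik on the other strand.

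Of 9 HIF subunits and oxygen sensors, all tested, 1 rose in SH SNA and 0 in EE + SNA, with median log2 fold changes of −0.019 and 0.040. Hif3a, a subunit whose forms can act against the other HIF subunits, had 2.58, 5.67 and 7.02 CPM in SH Sham and 10.9, 6.84 and 11.9 in SH SNA (log2 0.98, adjusted P = 0.048), with overlapping groups. Without SH Sham sample 1 the log2 value was 0.64 (adjusted P = 0.109), and the call was also lost with DESeq2 (adjusted P = 0.219), limma (0.111 and 0.128), scaling by library size (0.0524) and the replicate block (0.0629). In EE + SNA it was 0.72 (adjusted P = 0.0859). At an unadjusted P under 0.05 by edgeR, 2 of the 9 were higher and 0 lower in SH SNA, against 25.2% of all genes. In EE + SNA 1 was higher and 1 lower, against 27.2%. The prolyl hydroxylases Egln1, Egln2 and Egln3 and the ubiquitin ligase gene Vhl did not pass the unadjusted threshold in either comparison. Hif1an, of the same list, had 87.9 to 99.4 CPM in SH Sham and 85 to 91.4 in SH SNA. It had 90.7 to 95 CPM in EE Sham and 81.2 to 82.1 in EE + SNA, and passed the adjusted threshold in no comparison.

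Of 15 other hypoxia-inducible genes, 14 were tested. In SH SNA 0 passed the adjusted threshold with edgeR (2 higher and 3 lower at an unadjusted P under 0.05). In EE + SNA 1 rose (3 higher and 2 lower at an unadjusted P under 0.05 by edgeR). The medians were 0.035 and 0.10. Hmox1, the haem oxygenase, rose in EE + SNA by 0.41 (adjusted P = 0.0119) and gave 0.30 in SH SNA (adjusted P = 0.108). Macrophages use Hmox1 as well: the sum of 9 macrophage markers was 126.2 to 136.8 CPM in SH Sham, 143 to 193.8 in SH SNA and 156.8 to 257.6 in EE + SNA, and 2 and 3 of the 9 rose. The 6 tested neutrophil markers rose in 0 and 1 case (3 and 6 at an unadjusted P under 0.05 by edgeR). Without EE + SNA sample 3, the library rich in neutrophil RNA, Hmox1 gave 0.37 (adjusted P = 0.0278). The part of these cells in Hmox1 was not tested. Ddit4, Bnip3 and Higd1a stood on the lower side in SH SNA, at log2 −0.27, −0.15 and −0.14 with unadjusted P under the threshold and adjusted P = 0.0546, 0.198 and 0.124. In SH Sham these 3 had 72.6 to 91.2, 202.5 to 244.7 and 89.6 to 93.7 CPM. In EE + SNA they had 70 to 72.4, 197.6 to 217.8 and 83.3 to 94 CPM.

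Of 9 tested VEGF ligands and receptors, 1 fell in SH SNA and 2 in EE + SNA against SH Sham, and none rose. The medians were −0.14 and −0.020. Pgf, a placental ligand of the VEGF family, had 6.75, 6.89 and 7.69 CPM in SH Sham, 3.52, 4.73 and 4.86 in SH SNA and 5.16, 4.57 and 4.35 in EE + SNA, with no overlap. Pgf fell by 0.70 and by 0.60 on the log2 scale (adjusted P = 0.0106 and 0.0159). Nrp2, a co-receptor for VEGF and semaphorins, fell by 0.29 in EE + SNA (adjusted P = 0.0407) and gave −0.21 in SH SNA (adjusted P = 0.163). The call was lost with limma (adjusted P = 0.114 and 0.111) and in 5 of 6 fits that leave out a sample. The fibroblast markers, of which 0 rose in SH SNA (1 at an unadjusted P under 0.05 by edgeR) and 2 in EE + SNA, summed to 615.8 to 700 CPM in SH Sham, 622.1 to 864.7 in SH SNA and 762.1 to 971.2 in EE + SNA.

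Against EE Sham, the genes of these lists that rose in EE + SNA were Pfkfb4 (log2 0.46, adjusted P = 0.00758), Slc16a1 (0.40, adjusted P = 0.00486) and Hmox1 (0.39, adjusted P = 0.0351). The adjusted counts in this comparison were 1 of 14 glycolytic enzymes, 1 of 15 transport genes, 0 of 9 HIF and oxygen sensing genes, 1 of 14 hypoxia-inducible genes and 0 of 9 VEGF genes, all higher. The share of all tested genes was 4.83%. EE Sham against SH Sham and EE + SNA against SH SNA called 0 genes of the 5 lists after adjustment. Of all tested genes only 0.00616% and 0% passed there, so these counts say nothing particular about the lists.

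**Figure D4:**
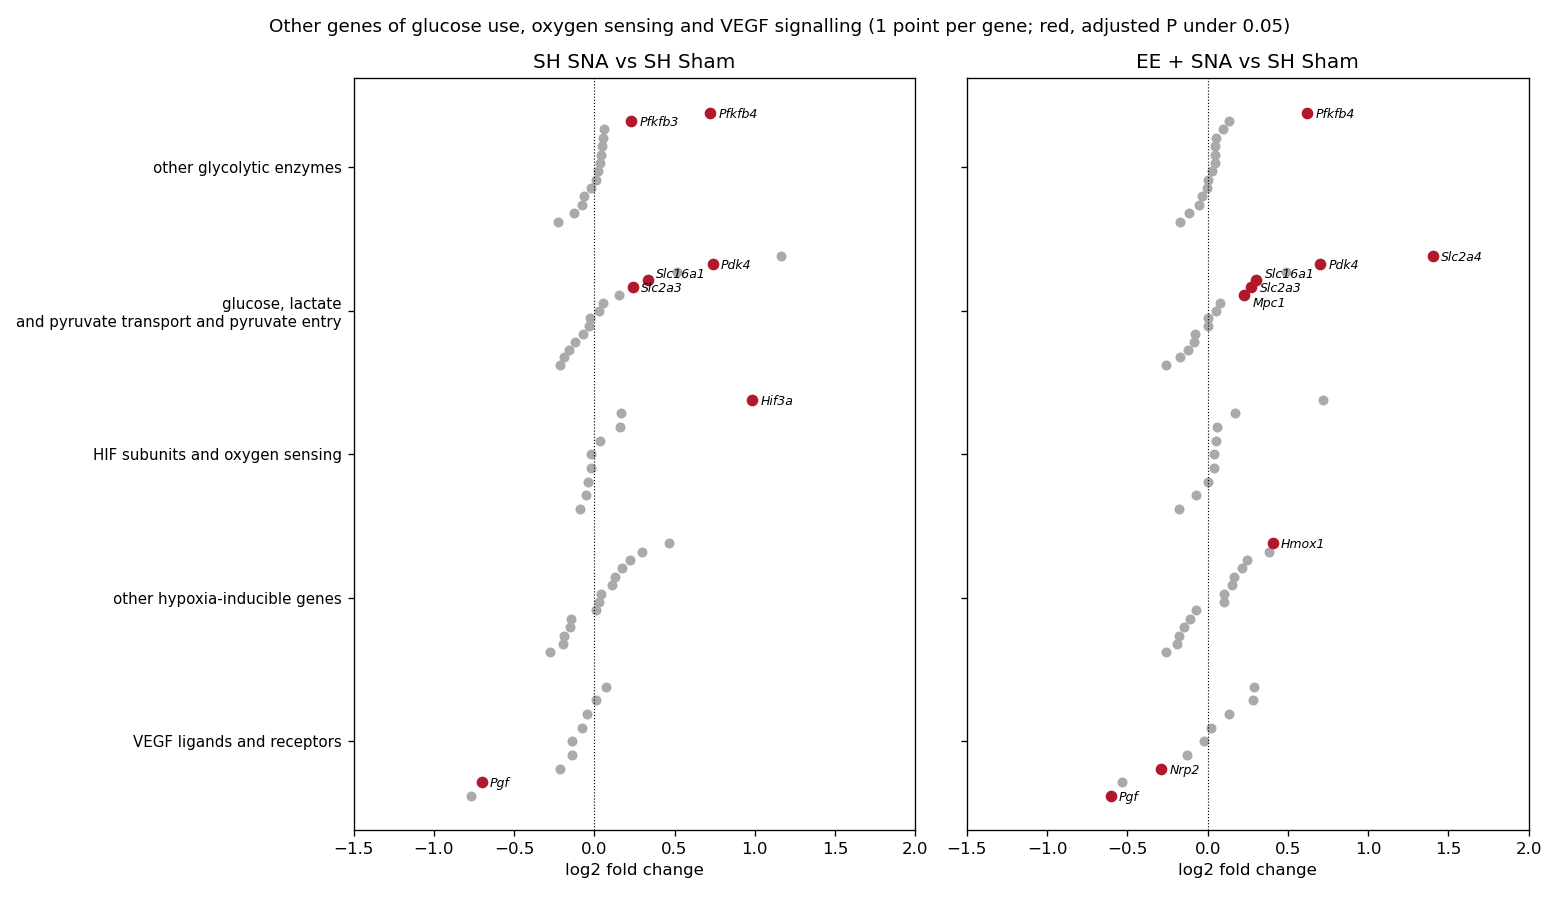
Log2 fold change of each tested gene of the 5 other lists in SH SNA (left) and EE + SNA (right) against SH Sham. Each point is a gene, spread vertically within its list, and red points with names passed an adjusted P of 0.05. Pfkfb4 stands at 0.72 and 0.62, and Pgf is the lowest red point at −0.70 and −0.60.

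Across the 12 samples, the genes whose log2 CPM followed that of a member most closely were taken from 15343 tested genes with at least 1 CPM on average. For Slc2a1 they were Bambi-ps1 (Pearson r 0.992), Fads3 (0.989) and Plekho2 (0.985). For Pgk1 they were Surf4 (0.97), Rcl1 (0.968) and Pop5 (0.966), and for Hk2 Gm9823 (0.927), Eif2ak3 (0.913) and Stat2 (0.908). Hif1a was most like BC005537 (0.942), Vegfa like A730017C20Rik (0.939), Pkm like Usp5 (0.943), Hk1 like Top3b (0.925), Pfkp like Cacnb1 (0.921), Ldhb like Tomm7 (0.913) and Ldha like Gm15708 (0.902). Among the 10 genes themselves, r was 0.903 between Slc2a1 and Pgk1, 0.845 between Hk2 and Pgk1, and −0.771 between Slc2a1 and Vegfa. The 12 samples fall into sham and SNA groups, so these values describe the order of groups as much as that of samples, and no P is given.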

How the data were processed

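RNA of 12 pooled DRG samples was sequenced as paired ends (Illumina, TruSeq mRNA kit). The authors aligned the reads to mm10 with TopHat2 2.0.12 and Bowtie2 2.2.3 and HTSeq gave the reads of each gene name. The deposited count table holds whole, unscaled read counts, and the deposited FPKM table holds values that the authors divided by gene length and library total. Of HTSeq's totals, 46.74% to 47.57% had no feature, 0.314% to 0.37% were ambiguous and 8.49% to 9.28% were not uniquely aligned. A strand setting is not given in the sources used here. All sample columns were mapped by name (0 unmapped), and the authors' own test results were not used.

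TMM scaling and filterByExpr (at least 10 counts, total 15) of edgeR 4.0.16 (R 4.3.3) were applied, which left 16238 genes with 99.887% to 99.905% of the reads on genes. Each comparison was fitted on its 6 samples, and the interaction on all 12, with glmQLFit and the two-sided quasi-likelihood F test. Calls were made at P under 0.05, the threshold of the study, and at a Benjamini-Hochberg adjusted P under 0.05 over all tested genes. "Rose" and "fell" mean the adjusted threshold. SE is the log2 fold change over the root of F, intervals are 95%, and CPM are TMM-scaled. Isozyme ratios used log2 FPKM and exact permutation tests. The fits were tested on simulated counts with known changes. Replicates of a group differed by more than sampling noise (chi-square per degree of freedom 3.87 to 8.53).

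Named genes were the 10 members, the genes of 5 pathway lists that passed the adjusted threshold against SH Sham in SH SNA or EE + SNA, and for each member up to 3 genes of highest Pearson r on log2 CPM (pseudocount 0.5). Egln1, Egln2, Egln3, Vhl, Hif1an, Ddit4, Bnip3 and Higd1a were named after their values were seen. Marker lists covered sensory neurons, satellite glia, Schwann cells, endothelium, fibroblasts, macrophages, neutrophils, red blood cells, skeletal muscle and injury response genes. The members and lists were chosen with earlier results of these data known. Some genes of the lists are not reported here and were left out of the counts. Of the others, Hkdc1, Car9 and Ly6g fell under the filter, and Hbb-bs and Hbb-bt were not among the gene names used.

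A possible pairing by replicate number was examined through the correlation of deviations from group means. For EE Sham and SH Sham, r between equal numbers was 0.331, 0.137 and 0.111 (other numbers, −0.332 to 0.194). Of these, 0.137 and 0.111 lay below the highest r of other numbers, and no source describes a pairing. The main fits use no block, and the replicate block was run as an alternative. In every other comparison at least 1 same-number r was under 0.1. Alternatives were the likelihood ratio test, DESeq2 1.42.0, library size scaling, 2 other filters, the replicate block, limma 3.58.1 on log2 FPKM with a pseudocount of 1 or 0.1, a joint fit of all samples, and leaving out each sample. Positions and exon overlaps came from the GENCODE annotation of GRCm38, and promoter windows from RefSeq.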

Additional observations from a re-analysis of the deposited data

How the results depend on the processing

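Of 950 values of the 10 genes under other settings, 870 kept their direction and side of the adjusted threshold. Slc2a1 rose under all of them against either sham group after SNA. The number of the 10 genes called in SH SNA after adjustment was 1, and became 2 when scaled by library size only, 2 in the joint fit of 12 samples (with Vegfa) and 3 without a filter (with Hk2 and Vegfa). Leaving out 1 sample gave 1 to 2 adjusted and 2 to 4 unadjusted calls in SH SNA (2 without SH Sham sample 1 or SH SNA sample 2). It gave 1 to 3 and 2 to 4 in EE + SNA against SH Sham (1 adjusted without SH Sham sample 1, 2 unadjusted without SH Sham sample 2 or EE + SNA sample 1). It gave 0 to 1 unadjusted in EE Sham (1 without EE Sham sample 1), 0 to 2 in EE + SNA against SH SNA (0 without SH SNA sample 1 or 3, and 2, with Hk2, without SH SNA sample 2), 1 to 3 in EE + SNA against EE Sham (1 without EE Sham sample 1) and 0 to 1 in the interaction (1 without SH Sham sample 3, SH SNA sample 2 or EE Sham sample 1). In EE + SNA against SH SNA the likelihood ratio test and DESeq2 called 0 at the unadjusted threshold. Without a filter the interaction called 1, Slc2a1. With FPKM + 1 the log2 difference of Hk2 to Hk1 was 0.30 in SH SNA, 0.42 in EE + SNA and 0.33 against EE Sham, since adding 1 exceeds most values of Hk2.

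The log2 differences that turned sign were all small, at most 0.091 in size in the main fit, in 26 comparisons in which the gene passed no threshold, and the cause was not tested. Over the fits that each left out 1 sample, the lowest and highest log2 values were as follows, and neither is the value of the main fit. In SH SNA against SH Sham Hk1 ran from −0.0916 to 0.0295, Pfkp from −0.00907 to 0.0747, Pkm from −0.0595 to 0.0841 and Ldha from −0.0876 to 0.051. In EE Sham against SH Sham Hk1 ran from −0.0501 to 0.0661, Pfkp from −0.0713 to 0.00569, Pgk1 from −0.0294 to 0.0274, Pkm from −0.107 to 0.0118 and Ldha from −0.0129 to 0.0784. In EE + SNA against SH Sham Pfkp ran from −0.0777 to 0.00196, Pkm from −0.0451 to 0.076, Ldha from −0.0467 to 0.0469 and Ldhb from −0.101 to 0.0237. In EE + SNA against SH SNA Hk1 ran from −0.107 to 0.00452, Pgk1 from −0.0222 to 0.00471, Pkm from −0.0547 to 0.0536 and Ldha from −0.0567 to 0.0774. In EE + SNA against EE Sham Pfkp ran from −0.025 to 0.0124, Ldha from −0.0826 to 0.00394 and Ldhb from −0.0484 to 0.0848. In the interaction of housing and surgery Hif1a ran from −0.0287 to 0.0998, Hk1 from −0.117 to 0.000047, Hk2 from −0.236 to 0.161, Pgk1 from −0.0367 to 0.0271, Pkm from −0.0149 to 0.116 and Ldha from −0.0775 to 0.0559. Pkm in SH SNA against SH Sham was −0.0014 by library size and −0.0012 by limma at either pseudocount. Hk1 in EE Sham against SH Sham was −0.00736 by library size, −0.00663 without a filter, and −0.00451 and −0.00455 by limma with pseudocounts of 1 and 0.1. In the interaction, Pgk1 was −0.00497 by DESeq2, and Ldha was 0.000972 by library size, 0.00346 without a filter, 0.000589 with the replicate block, and 0.00273 and 0.00277 by limma with pseudocounts of 1 and 0.1.

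With the replicate number as a block, the unadjusted count in EE Sham against SH Sham was 1 (Slc2a1) and that in EE + SNA against EE Sham was 3 (with Pgk1), and no other call on the 10 genes changed. Among the pathway genes it ended the call of Hif3a in SH SNA (adjusted P = 0.0629). In the comparisons other than EE Sham against SH Sham, same-number r ran from −0.235 to 0.236. For EE + SNA against SH SNA it was 0.0573 to 0.126 and that of other numbers at most 0.0403, a hint from the data and not from the design. Among the pathway genes, calls of Pfkfb3, Hif3a, Mpc1 and Nrp2 were lost in 4 or 5 of the 6 fits that leave out a sample, and those of Slc16a1, Pdk4, Slc2a3 and Pgf in up to 3. Hk2 rests on 37 to 147 reads per library, so its level is less precise than those of the other genes.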
